A study of Macaca mulatta with 20 samples.

Results

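Of 14132 genes measured in the corpus luteum of the rhesus macaque, 174 had their highest RNA levels shortly after ovulation: the lowest of 4 early arrays lay above the highest of the 16 later ones. They were chosen by the measured values of the 20 arrays. Each gene was represented by its brightest probe set, on average over all arrays, and probe sets with several gene symbols were not used. In all, 184 genes (1.3%) met this rule. A further 10 were set aside by name, F3, PTX3, AQP11 and the division genes MELK, TRIP13, NCAPG, CCNB1, CENPW, MCM3 and CCNA2, which leaves 174. Because early against later values chose these genes, that difference is described here and not tested. Tests were run only among the 16 later arrays, which the rule treats alike. It caps all 16 below the lowest early array, so genes that rise past the early level at a later stage are left out. Shares of rises and falls among the 174, set beside all genes, are therefore limited in part by the rule.

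The corpus luteum forms when the cells left in an ovulated follicle leave their proliferative state, enlarge and begin to make progesterone. During this luteinization new capillaries grow in and some cells still divide, so replication enzymes, mitotic proteins, ribosomes and protein-folding factors are needed. If no pregnancy follows, the gland first loses its secretion and then its cells. Whole tissue was measured, so fewer cells of a type and less RNA per cell cannot be told apart.

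The glands came from females in natural menstrual cycles, with 4 corpora lutea and 4 arrays at each of 5 stages, dated from the surge of luteinizing hormone. The early glands were taken on days 3 to 5 and the mid glands on days 7 to 8. Mid-late covers days 10 to 12, late is days 14 to 16 and the very-late glands date from days 18 to 19. By the submitters' account, luteal tissue is forming at the early stage, progesterone peaks at mid and is still made at mid-late, secretion ceases at late, and cells die and tissue is remodelled at very-late, around menses. The day of the surge was inferred from serum estradiol, no treatment is named, and each gland is said to be a separate biological replicate. All values are log2 signal from Affymetrix rhesus arrays, where 1 unit is 2-fold. On this scale 3.42, the median of 683 viral probe sets, served as background.

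Luteal identity was clear. The mean of STAR, HSD3B2 and INHA, the 3 of 6 listed luteal markers that were measured, lay at 12.13 to 12.42 on the early arrays. It was 10.95 to 11.84 on the late arrays and 6.54 to 8.76 on the very-late arrays. Macrophage markers, 5 of 6 measured, averaged 7.03 to 7.52 at early, 6.29 to 6.77 at mid and 8.85 to 9.70 at very-late. Epithelial markers, 3 of 4 measured, averaged 3.90 to 4.24 on every array, with EPCAM at or below background. They were not alike: CDH1 lay close to background, with stage means of 3.498 at early to 3.635 at mid. PAX8 lay well above it, with stage means of 5.555 at early to 5.863 at very-late. The 7 endothelial markers averaged 7.75 to 8.03 at early and 8.14 to 8.33 at mid. None of the measured cell type markers was among the 174 genes. On 7 arrays, early replicate 4, all 4 mid arrays, mid-late replicate 1 and very-late replicate 2, 6 probe sets of the mitochondrial genome averaged 7.02 to 8.93, against 11.5 to 12.5 on the other 13. This split touches the comparisons with the mid stage.

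Most of the 174 genes were well measured and stood only moderately higher at the early stage. Their median level over all arrays was 7.37, against 5.18 for all genes, and 22 of them (12.6%) averaged under 5, against 47.6% of all genes. The early mean exceeded the mean of the 16 later arrays by a median of 0.62, or 1.53-fold, with a range of 0.21 to 2.48. For 30 genes the difference was at least 2-fold, for 68 it was between 1.5-fold and 2-fold, and for 76 it was under 1.5-fold. The gap between the lowest early and the highest later array had a median of 0.071, was 0.2 or more for 24 genes and under 0.05 for 65.

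**Figure D1:**
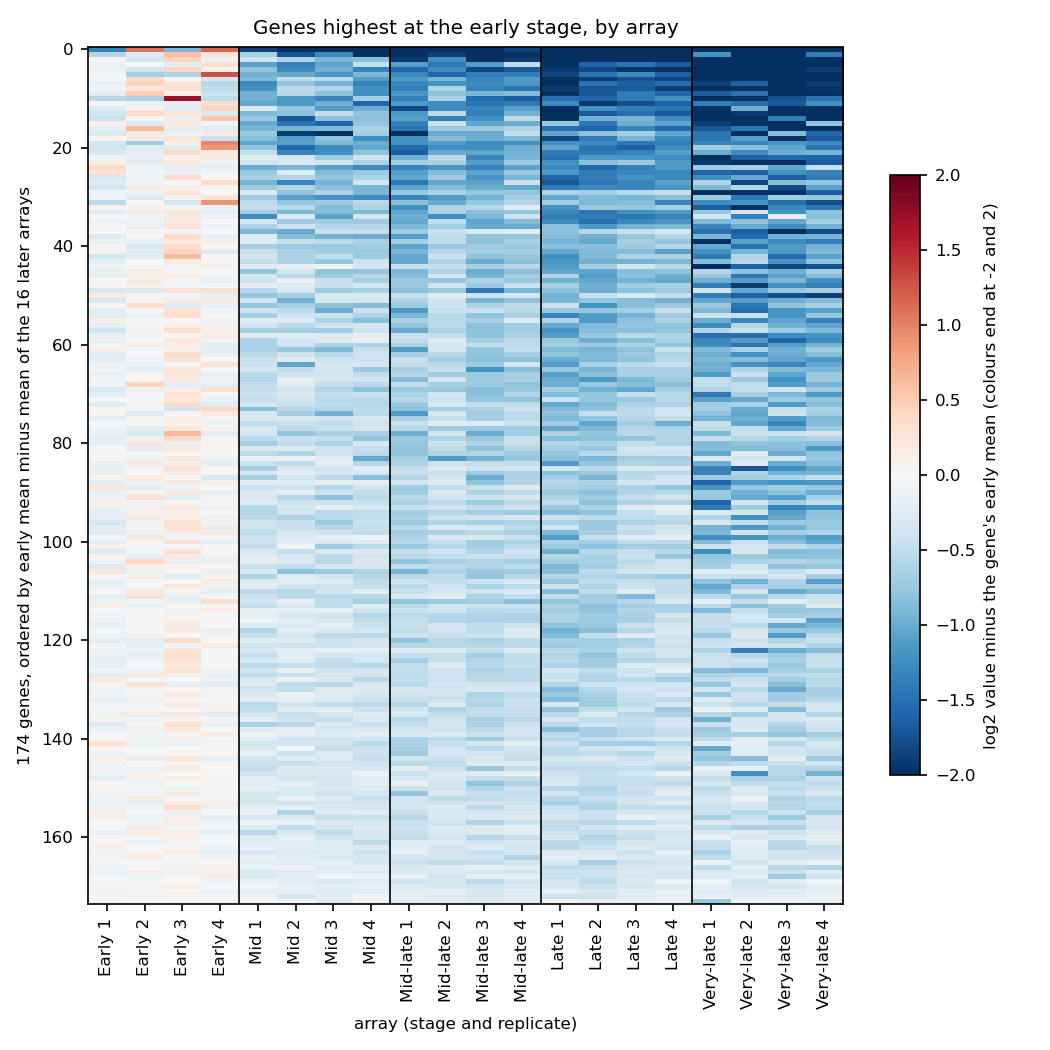
Each row is 1 of the 174 genes and each column 1 of the 20 arrays. Colour gives the log2 value minus the gene's early mean, and colours end at -2 and 2. Blue deepens from mid to very-late in most of the upper rows, and the lowest rows differ by little.

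Genes at the edge of the rule differ from those just outside it by less than any replicate spread. The 6 smallest gaps belonged to RPS18 (0.0039), SMIM8 (0.0038), DTYMK (0.0028), KIF4A (0.0018), CCT8 (0.0008) and TMEM177 (0.0008). The 6 genes that missed by least were RPL26 (-0.0008), TIPIN (-0.0012), MRPL9 (-0.0014), RPUSD4 (-0.0031), RPL10A (-0.0034) and LIN37 (-0.0035). Early replicate 1 held the lowest early value for 75 of the 174 genes, against 41 in replicate 2, 21 in replicate 3 and 37 in replicate 4, while replicate 3 held the highest for 89. Without early replicate 1 the same rule took 431 genes, without replicate 2 it took 270 and without replicate 4 it took 266. The highest later value came from a mid array in 119 genes, a mid-late array in 26, a late array in 11 and a very-late array in 18.

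By the same count, stages differed widely in how many genes set them apart. All 4 very-late arrays lay above the other 16 for 790 genes, all 4 late arrays for 42, all 4 mid arrays for 13 and all 4 mid-late arrays for 6. Only 33 genes had all 4 early arrays below the other 16, so genes set apart at the early stage were mostly higher.

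The widest gap belonged to NTAQ1, an enzyme that deamidates glutamine at protein N-termini in the N-degron pathway. Its early arrays read 7.63, 7.56, 7.49 and 8.00, and the 16 later ones ran from 5.74 through a median of 6.28 to 6.71. The lowest early value exceeded the highest later one by 0.78. TMPRSS7, a membrane-bound serine protease, had the largest difference of means, 2.48, but very uneven early values of 4.48, 6.93, 4.91 and 6.99. Its later values, 3.09 to 3.98 with a median of 3.25, lie around background, below which the array cannot follow it. CIB2, a calcium-binding partner of integrins, read 7.37, 7.08, 7.91 and 7.57 at the early stage and 5.21 to 6.67 (median 5.66) later.

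Genes of cell division were the most frequent group. In a list of mitosis and spindle genes, 10 of 60 measured met the rule (16.7%), against 1.23% of all genes. The early mean was the higher one in 57 of the 60, against 7633 of 14132 over all genes. The same all-gene count applies to the lists and families below, and all these counts include genes whose higher early mean the rule fixes. The list's median difference was 0.39, against 0.01 for all genes. None of the division genes set aside by name is in this list or in the replication list below, so their shares do not count those genes. The 10 are ZWINT, CDKN3, CKS1B, SMC4, BORA, H2AZ1, KIF22, CDCA8, PIMREG and KIF4A.

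ZWINT, a kinetochore protein, read 6.15, 6.98, 6.16 and 6.10 at the early stage and 4.15 to 5.71 (median 4.97) on the later arrays. CDKN3, a phosphatase that acts on cyclin-dependent kinases, read 6.38, 6.94, 6.77 and 5.95 early and 4.21 to 5.72 (median 5.10) later. PIMREG, a regulator of mitosis, averaged 6.36 ± 0.39 (SD, n = 4) at early, 5.49 ± 0.37 at mid and 4.27 ± 0.09 at very-late. It met the rule narrowly, with its lowest early array at 5.85 and its highest later one at 5.84. For all 3 the mean was lower at each stage than at the one before. SMC4, a condensin subunit that compacts chromosomes, read 7.10, 7.17, 7.23 and 7.03 early and 5.83 to 6.91 (median 6.63) later. H2AZ1, a histone variant, was far brighter, at 10.72, 10.77, 10.97 and 10.66 early and 9.83 to 10.56 (median 10.27) later. The chromokinesin KIF4A was dim, from 4.84 ± 0.11 at early to 3.79 ± 0.14 at very-late.

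DNA replication and repair followed, with 8 of 78 genes (10.3%), a list median of 0.18 and a higher early mean in 68 of the 78. TYMS, which makes thymidylate for DNA, read 8.25, 8.36, 8.46 and 7.78 early and 5.94 to 7.40 (median 7.06) later. POLD2, the small subunit of DNA polymerase delta, read 8.55, 8.43, 8.88 and 8.48 early and 7.26 to 8.17 (median 7.66) later. RNASEH2A, the catalytic subunit of ribonuclease H2, read 6.90, 7.19, 7.10 and 7.01 early and 6.0 to 6.68 (median 6.24) later. In these 3 genes the early arrays differed from each other less than from the later ones on average. RRM1, the large subunit of ribonucleotide reductase, read 7.80, 7.95, 8.05 and 7.76 early and 6.68 to 7.70 (median 7.19) later. PCNA, the sliding clamp of the polymerase, read 9.06, 9.28, 9.18 and 8.97 early and 8.11 to 8.91 (median 8.65) later. Its early arrays exceed the later ones by little, 0.53 in the mean. The other 3 were ATAD2, RAD51AP1 and HELLS. HELLS, a chromatin remodeller, sat near background at 4.50 ± 0.19 early and 3.67 ± 0.04 very-late.

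Ribosome and translation genes gave the largest number, 21 of 325 (6.46%), with a list median of 0.21 and a higher early mean in 240. They split by family. Of 62 measured genes of mitochondrial ribosomal proteins, taken by symbols that start with MRPL or MRPS, 8 met the rule. In 56 the early mean was the higher one, and the median difference was 0.40. Of 39 genes of cytoplasmic ribosomal proteins, also taken by symbol, 5 met it, 34 were higher and the median was 0.21. These 2 families were grouped after the gene names had been seen.

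RPL22L1, a paralog of the ribosomal protein RPL22, stood out among the 5. Its early arrays read 11.62, 11.14, 11.07 and 11.08, and the later ones 9.66 to 10.78 (median 10.12), a mean difference of 1.08. The other 4, RPS18, RPS3, RPS21 and RPL30, were 0.21 to 0.38 higher at the early stage, with early means above 12. MRPL47, of the large mitochondrial subunit, read 8.84, 8.89, 8.74 and 8.79 early and 6.57 to 8.60 (median 8.18) later. NHP2, of the ribonucleoproteins that modify ribosomal RNA, read 10.21, 10.40, 10.49 and 10.35 early and 9.04 to 10.14 (median 9.77) later. YARS1, which charges tyrosine tRNA, read 8.52, 8.64, 9.51 and 8.89 early and 7.34 to 8.50 (median 8.15) later, with its highest early array well above the others. Other nucleolar and ribosome-assembly proteins in the group include NOP2, NPM3, BOP1 and WDR18, and the serine tRNA synthetase SARS1 belongs to it too. RCL1, which acts in ribosomal RNA maturation and is in no list used here, read 7.84, 7.86, 8.14 and 7.96 early and 6.43 to 7.61 (median 7.06) later.

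Protein folding and the endoplasmic reticulum contributed 7 of 186 genes (3.76%): FKBP10, RTN4, PDIA5, PPIE, SEC11A, CCT7 and CCT8. FKBP10, a collagen chaperone, read 8.39, 8.37, 8.25 and 8.20 early and 6.02 to 8.07 (median 7.56) later. CCT7, of the chaperonin that folds actin and tubulin, read 9.27, 9.49, 9.84 and 9.60 early and 8.33 to 9.26 (median 9.07) later. RTN4, a reticulon that shapes the endoplasmic reticulum, read 5.63, 5.32, 5.99 and 5.30 early and 4.35 to 5.11 (median 4.69) later. CRYAB, a small heat-shock protein outside these lists, read 6.73, 6.55, 6.86 and 7.07 early and 5.38 to 6.13 (median 5.87) later. Its 4 later stage means lay within 5.75 to 5.90. The cytoskeleton list held 7 of 242 (2.89%), among them the LIM proteins PDLIM1 and PDLIM2 and the nuclear lamin LMNA. PDLIM2 read 8.27, 8.36, 8.40 and 8.27 early and 7.62 to 8.13 (median 7.76) later. LMNA read 9.68, 9.74, 9.90 and 9.78 early and 8.70 to 9.66 (median 9.28) later. Both had narrow early ranges, and for LMNA the gap was 0.02. None of the other probe sets of LMNA met the rule, with gaps of -0.81 to -0.10. Their early mean was lower in some (-0.08 and -0.07) and higher in the rest (0.10 to 0.52).

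In transcription, 2 of 8 RNA polymerase II subunits met the rule, a family grouped after the names were seen. POLR2I, 1 of them, read 9.10, 9.31, 9.65 and 9.14 early and 8.09 to 8.88 (median 8.58) later. ZNF580, a zinc-finger protein, read 6.55, 6.55, 6.79 and 6.44 early and 5.52 to 6.19 (median 5.93) later. Transcription factors were rare otherwise, 3 of 758 (0.396%), with FOSL2 and TCF7 the other 2. Solute carriers and channels gave 3 of 541 (0.555%). KCNK1, a potassium channel, read 4.17, 4.48, 4.66 and 4.69 early and 3.41 to 4.15 (median 3.64) later, near background.

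**Figure D2:**
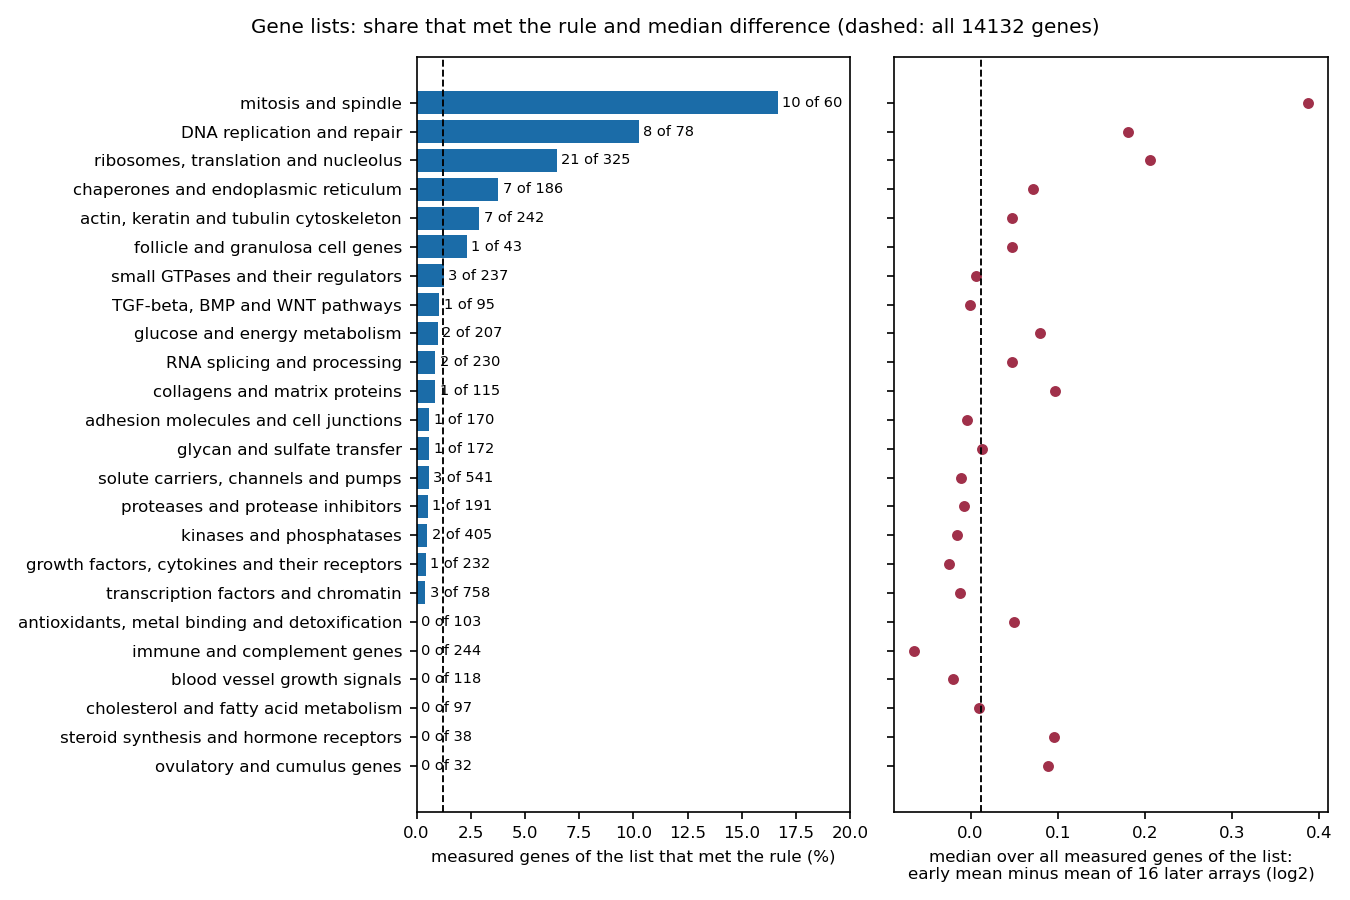
Bars give the percentage of each list's measured genes that met the rule, with counts beside them. Points give the list's median early mean minus the mean of the 16 later arrays (log2), and dashed lines mark all 14132 genes, at 1.23% and 0.01. Mitosis, DNA replication and ribosome lists lie highest on both.

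Some lists held none of the 174 genes: 0 of 38 in steroid synthesis and hormone receptors, 0 of 97 in cholesterol and fatty acid metabolism, 0 of 118 in blood vessel growth signals and 0 of 244 in immunity and complement. Among 32 genes of ovulation and the cumulus 0 met the rule. In the immune list 1 further gene met the rule and is set aside by name. At 1.23% of all genes, lists of these sizes would hold few or none, so the zeros are a count and set no list apart. The immune list was the one with the lowest median, -0.07, and 83 of its 244 genes had the higher early mean, against 7633 of 14132. In total 72 of the 174 genes fell in at least 1 of 24 lists and 102 in none. Of the 174, 16 carry only a locus name.

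Signalling genes were few, and each is a single case rather than a group. FSTL3, a secreted protein that binds activin, read 9.76, 9.32, 10.14 and 9.59 early and 6.57 to 9.31 (median 7.5) later, so it met the rule narrowly. OSMR, a receptor for oncostatin M, read 10.31, 10.43, 11 and 10.79 early and 8.99 to 10.15 (median 9.57) later. DLK1, an imprinted ligand-like protein of the Notch family, read 10.71, 11.19, 10.86 and 11.19 early and 8.31 to 10.49 (median 9.97) later. MEST, another imprinted gene, read 9.01, 8.62, 9.08 and 8.78 early and 5.89 to 8.42 (median 7.83) later. DLK1 and MEST spread widely within the later stages, with SDs up to 0.76 and 0.90.

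Metabolic genes stood out singly too. SRM, spermidine synthase of the polyamine pathway, read 8.70, 8.97, 9.38 and 9.03 early and 7.37 to 8.44 (median 7.91) later. APRT, which salvages adenine, read 8.68, 8.85, 9.08 and 8.90 early and 7.69 to 8.47 (median 8.04) later. AHCY, which clears S-adenosylhomocysteine after methylation reactions, read 8.34, 8.53, 8.71 and 8.32 early and 7.36 to 8.11 (median 7.81) later. PHGDH, the first enzyme of serine synthesis, was uneven at the early stage, with 1 array far above the other 3: its early values were 6.79, 6.70, 9.06 and 6.83 and its later ones 5.09 to 6.69 (median 5.90). COL5A3, a fibrillar collagen chain, read 8.21, 7.85, 7.75 and 7.86 early and 6.28 to 7.64 (median 6.80) later.

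Where a gene had other probe sets, these gave mixed readings. Of the 174 genes, 98 had 1 probe set and 76 had 117 others between them. In 82 of the 117 the early mean was the higher one, and 9 also had all 4 early arrays above the other 16, or 7.69%, against 0.355% of 10707 other probe sets of the remaining genes. No share over other probe sets of the remaining genes is given beside the 82. The 9 belong to TMPRSS7, CIB2, TYMS, LOC705696, APRT, MRPL47, H2AZ1, RRM1 and KCNK1. Of 55 other probe sets averaging 5 or more, 7 met the rule, 42 had the higher early mean and the median difference was 0.34. Judged by the best of a gene's other probe sets, the gap lay furthest against the rule in ANP32E (-1.32), KHSRP (-0.80), RCL1 (-0.77), NOP2 (-0.74) and MRPL48 (-0.71). In these probe sets the early mean was higher for ANP32E (0.49) and RCL1 (0.43) and lower for KHSRP (-0.04), NOP2 (-0.17) and MRPL48 (-0.18). Those of KHSRP and NOP2 were dim, averaging 4.14 and 3.47. Single probe sets reached further, as in GPR137B (-3.42), chosen here after its values were seen. Both other probe sets of EVI5 had a lower early mean (-0.11 and -0.12). For RCL1, whose values enter below, 1 of 2 other probe sets had a lower early mean (-0.11).

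From stage to stage the distance to the early level widened. The early mean exceeded the mid mean by a median of 0.43, the mid-late mean by 0.58, the late mean by 0.64 and the very-late mean by 0.77. Differences of at least 2-fold were seen for 13 genes against mid, 19 against mid-late, 31 against late and 55 against very-late, or 7.47%, 10.9%, 17.8% and 31.6% of the 174. Over all genes these shares were 0.665%, 0.899%, 1.66% and 5.53%, which widen in the same order. The lowest stage mean was the very-late one in 103 genes, the late one in 50, the mid-late one in 17 and the mid one in 4. No share over all genes is given beside these counts. The mean was lower at every step in 63 genes (36.2%), against 5.82% of all genes, and the first of these steps is fixed by the rule.

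The test among the 4 later stages used limma, with Benjamini-Hochberg adjustment over 52707 probe sets and an adjusted p under 0.05. Of the 174 genes, 68 (39.1%) differed among later stages, against 26.8% of all genes. Among probe sets averaging 5 or more the order turned, with 62 of 152 (40.8%) against 45.2%. None of the 174 passed in either short step. In mid-late minus mid 0 of 174 passed (0.0212% of all genes), while 43 had a lower mean and 0 a higher one with unadjusted p under 0.05 (5.75% and 2.92% of all genes). In late minus mid-late 0 of 174 passed (0% of all genes), with 24 lower and 1 higher by the unadjusted p (3.78% and 4.61% of all genes). With array weights in limma the adjusted counts were also 0. Median differences were -0.15 and -0.10 in these steps, against -0.01 and 0.00 for all genes.

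Between mid and late, 18 of the 174 genes fell (10.3%), against 2.1% of all genes, and 0 rose, against 1.42%. Rises past the lowest early value are shut out by the rule, which limits these shares in part. By the unadjusted p, 84 had lower means and 0 had higher ones (10.6% and 8.62% of all genes). Without probe sets averaging under 5, 21 of 152 fell, against 4.32% of the genes kept. All 4 mid arrays belong to the low mitochondrial group and no late array does. With a term for that split in the limma fit, 1 of 174 fell, FSTL3 (0.0991% of all genes), and for the other genes stage and split cannot be told apart. The count was 10 without mid replicate 3 and 29 without very-late replicate 2, an array that enters only through the shared spread. Marker means moved in this step too. Macrophage markers averaged 6.29 to 6.77 at mid and 7.28 to 8.06 at late, and luteal markers 12.41 to 12.56 and 10.95 to 11.84. The luteal fall was mainly in HSD3B2, with means of 11.92 at mid and 9.35 at late. INHA went from 12.31 to 11.96 and STAR from 13.26 to 13.37. Among the measured macrophage markers only MRC1 did not rise (7.90 and 7.73). The part of these cells was not tested.

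FSTL3 had the smallest adjusted p of the named falls. Its mid arrays read 9.31, 9.08, 8.79 and 8.85 and its late arrays 6.65, 7.45, 7.38 and 7.08, with no overlap. The difference was -1.87 ± 0.20 (SE, adjusted p = 0.000384 in limma), and -1.87 with the mitochondrial term (adjusted p = 0.0450). The others with large falls were MLPH, UBE2K, PIMREG and the locus LOC714349. UBE2K, a ubiquitin-conjugating enzyme, read 4.43, 4.50, 4.82 and 4.50 at mid and 3.32, 3.63, 3.81 and 3.61 at late, which is close to background (-0.97 ± 0.16, limma adjusted p = 0.00526). The rest of the 18 include SRM (-0.70 ± 0.13), CIB2 (-0.85 ± 0.13), COL5A3 (-0.63 ± 0.13), POLD2 (-0.41 ± 0.10) and the ATPase RUVBL1 (-0.43 ± 0.10).

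Across the whole later span, very-late minus mid, 73 of the 174 genes fell (42%), against 15.5% of all genes, and 0 rose, against 12.6%. Examples are POLR2I (-0.51 ± 0.08), NHP2 (-0.66 ± 0.12), PDLIM1 (-0.56 ± 0.10), RTN4 (-0.42 ± 0.09) and ITGB3BP (-0.42 ± 0.07), a centromere protein. The median difference over the 174 was -0.29, against 0.00 for all genes. Of the 174, 157 were below 0 (90.2%), against 49.9% of all genes. Genes that rose past their early level at very-late cannot be among the 174, so the shares in this comparison are limited in part by the rule. Among genes averaging 5 or more, 66 of 152 fell, against 27.2% of the genes kept, and 1 rose, against 18.8%. With the mitochondrial term 60 fell (12.3% of all genes). With cyclic loess scaling 63 of the 174 fell and 4 rose, against 2088 and 1937 of 14132 genes. Of the 18 genes lower at late, 16 were also among the 73, though both comparisons use the same mid arrays. The luteal marker mean was lower and the macrophage marker mean higher on the very-late arrays than at mid, as given above. The part of these cells in the falls was not tested.

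By function, the falls from mid to very-late took in 5 of the 10 mitosis genes (ZWINT, CDKN3, PIMREG, KIF4A and SMC4) and 23 of the list's 60, with 0 of the 60 higher. ZWINT read 5.42, 5.44, 5.46 and 5.71 at mid and 4.64, 4.90, 4.19 and 4.15 at very-late, with no overlap (-1.04 ± 0.18, limma adjusted p = 0.000847). CDKN3 differed by -0.84 ± 0.16 (limma adjusted p = 0.00158). Of the 8 replication genes 2 fell, POLD2 and HELLS, and in the whole list 14 of 78 were lower and 9 higher, near the shares of all genes. TYMS missed the threshold at -0.63 ± 0.22 (limma adjusted p = 0.0580). Of the 21 translation genes 8 fell, MRPL47, MRPL48, MRPL2, MRPL34, NPM3, NHP2, BOP1 and YARS1, where 42% of the 174 fell. In the whole list 63 of 325 were lower and 20 higher. Over all genes 15.5% were lower and 12.6% higher, or 27.2% and 18.8% of those averaging 5 or more.

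MMD, a membrane protein of the progestin and adipoQ receptor family, fell further than most. Its early arrays read 10.28, 10.39, 10.15 and 10.70, its mid arrays 9.30, 9.03, 9.34 and 9.89, its late arrays 7.98, 8.79, 8.92 and 8.71 and its very-late arrays 7.83, 6.50, 7.04 and 7.74. The stage mean was lower at each step, and mid and very-late did not overlap (-2.11 ± 0.30, limma adjusted p = 0.000116). LOC705614, a locus with no other name, read 7.92, 7.27, 7.34 and 9.23 at early and 4.79 to 7.05 (median 6.52) later, and fell from mid to very-late (-1.59 ± 0.17, limma adjusted p = 8.34e-06). FSTL3 read 6.94, 6.93, 6.78 and 6.57 at very-late (-2.20 ± 0.20 from mid, limma adjusted p = 1.72e-06). Its very-late mean of 6.81 ± 0.17 (SD, n = 4) was still above background.

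**Figure D3:**
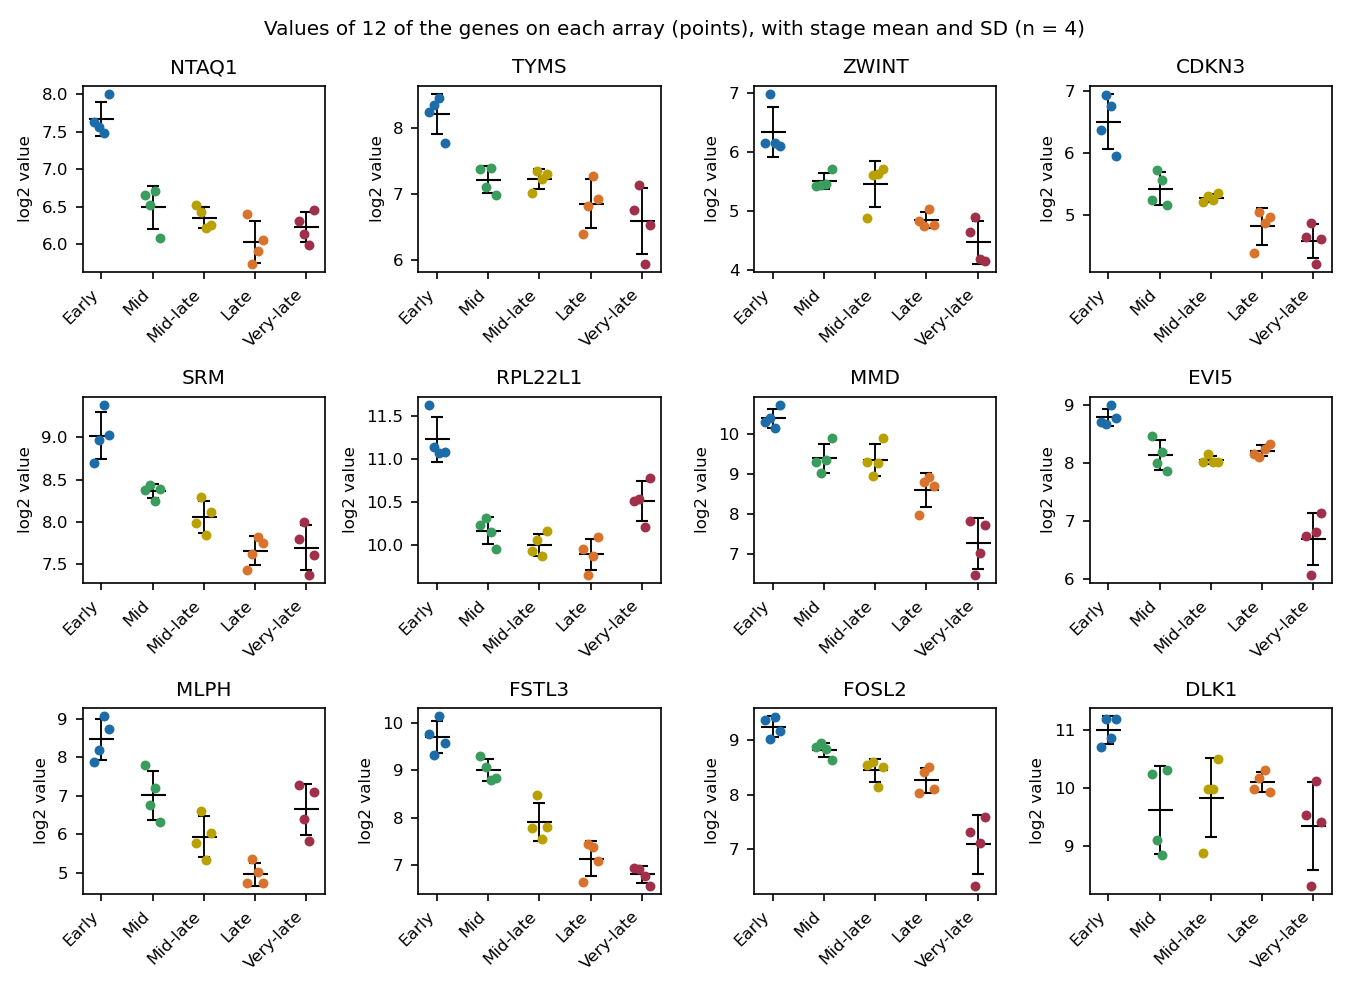
Points are the log2 values of 12 of the genes on each array, and bars the stage mean and SD (n = 4). In each panel the early points lie above all others. SRM and CDKN3 step down to the late stage, EVI5 drops at very-late, and RPL22L1 and MLPH are higher at very-late than at late.

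Between late and very-late, when tissue breaks down, 26 of the 174 genes fell (14.9%), against 11% of all genes. The number that rose was 5 (2.87%), against 9.85%. Here too the rule leaves out genes whose very-late values pass the early ones, which limits the share of rises. Among probe sets averaging 5 or more, 28 of 152 fell (18.4%), fewer than the 21.1% of the genes kept, and 5 rose (3.29%), against 15.2%. With cyclic loess scaling the split over the 174 was 24 lower and 14 higher, against 1428 lower and 1538 higher of 14132 genes. The 26 are all among the 73 that fell from mid to very-late, with the same very-late arrays in both. Only CARHSP1, an RNA-binding protein, and UXT, a prefoldin-like protein, fell both from mid to late and from late to very-late. Very-late arrays had lower luteal and higher macrophage markers than late arrays, and the part of these cells in the result was not tested.

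EVI5, a GTPase-activating protein for Rab proteins with a part in the cell cycle, fell most. Late arrays read 8.16, 8.11, 8.24 and 8.33 and very-late arrays 6.74, 6.08, 6.82 and 7.14, with no overlap (-1.51 ± 0.17, limma adjusted p = 3.23e-05). Averaged over its 3 probe sets the difference was -0.73. Its mid, mid-late and late means were 8.13, 8.05 and 8.21. For MRPL47 the late arrays were at 7.99, 8.25, 8.37 and 8.46 and the very-late arrays at 7.30, 7.17, 6.57 and 7.02 (-1.25 ± 0.17, limma adjusted p = 0.000164).

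FOSL2, a subunit of the transcription factor AP-1, read 8.03, 8.41, 8.50 and 8.11 at late and 7.32, 6.33, 7.12 and 7.58 at very-late (-1.17 ± 0.21, limma adjusted p = 0.00120). MMD differed by -1.32 ± 0.30 (limma adjusted p = 0.00731) in this step, its very-late arrays all below its late ones. Others among the 26, picked after their values were seen, are the coenzyme Q enzymes COQ3 (-0.50 ± 0.12) and COQ4 (-0.39 ± 0.10), MRPL48 (-0.95 ± 0.13), FKBP10 (-0.83 ± 0.22) and NPM3 (-0.41 ± 0.09).

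The 5 genes that rose were MLPH, RPL22L1, DYNLT2B, RCL1 and RING1. MLPH, which links Rab27a vesicles to myosin, read 7.88, 8.19, 9.07 and 8.75 at early, 7.81, 6.75, 7.20 and 6.32 at mid, 5.76, 6.61, 5.34 and 6.04 at mid-late, 4.72, 5.36, 5.02 and 4.74 at late and 7.28, 6.40, 5.81 and 7.09 at very-late. Its late arrays lie below every very-late array, and very-late overlaps mid. The fall to late was -2.06 ± 0.36 (limma adjusted p = 0.00787, or 0.160 with the mitochondrial term) and the later rise 1.68 ± 0.36 (limma adjusted p = 0.00479). Averaged over its 2 probe sets the values were -1.12 and 0.91.

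RPL22L1 read 9.96, 9.66, 9.87 and 10.09 at late and 10.51, 10.54, 10.21 and 10.78 at very-late, with no overlap (0.61 ± 0.12, limma adjusted p = 0.00285). Even so, its highest very-late array stays 0.29 below its lowest early one. DYNLT2B (0.50 ± 0.14), a dynein light chain, RCL1 (0.44 ± 0.13) and RING1 (0.27 ± 0.08), a Polycomb ubiquitin ligase, passed narrowly, at limma adjusted p = 0.0286, 0.0306 and 0.0360. Each of the 3 lost its call when certain single arrays were left out, in 5, 6 and 6 of 16 fits, and with median centring. RCL1 averaged over its 3 probe sets gave 0.009 (limma adjusted p = 0.967).

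**Figure D4:**
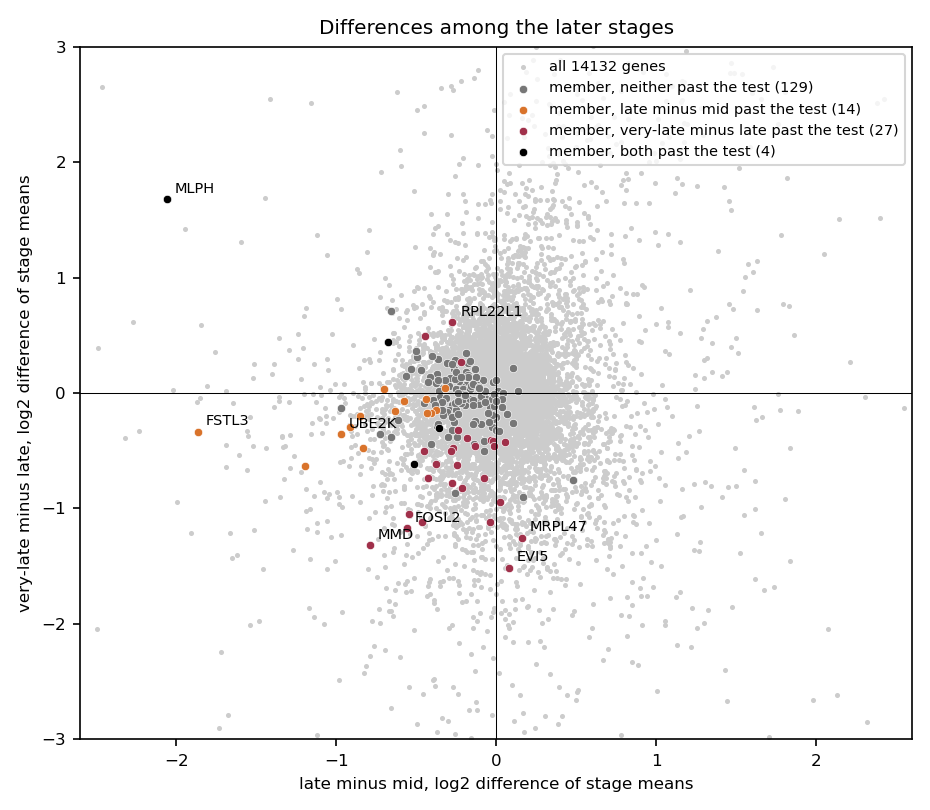
Each point is a gene, with late minus mid on the horizontal and very-late minus late on the vertical axis (log2). Grey points are all 14132 genes, of which 109, none of them among the 174, lie outside the axes. Most of the 174 lie left of 0, 129 pass neither test, and MLPH stands alone at the upper left.

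Many early-high genes had no further course that could be shown. In 106 of the 174 the test for any difference among later stages did not pass, which does not show that their levels were equal. NTAQ1 is 1 of these: its later means were 6.49 ± 0.29 (SD, n = 4), 6.35 ± 0.15, 6.02 ± 0.28 and 6.22 ± 0.20 (limma adjusted p = 0.186). For CRYAB the adjusted p in limma was 0.893, for DLK1 0.608, for OSMR 0.499 and for TYMS 0.117.

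A few of the genes are neighbours. In the order of RefSeq genes of the current rhesus assembly, T2T-MMU8v2.0, 3 pairs were adjacent among measured genes: AHCY with ITCH, RPS18 with RING1, and ATAD2 with NTAQ1. Whether probes of 1 gene also report its neighbour was not tested.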

How the data were processed

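Total RNA of 20 corpora lutea was hybridised to Affymetrix rhesus arrays, 1 per gland, from 2 µg labelled in 1 cycle, per the labels' protocols. The deposited values are log2 signal that the authors made with RMA, per the submitters' processing notes; the RMA version and genome build are not given in the sources used here. No further scaling was applied. Of 52865 probe sets, 158 controls were left out. Of the 52707 tested, 24956 had 1 symbol (14132 genes), 361 several and 27390 none, by the platform annotation, and 218 gene identifiers were not in the current table.

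In R 4.3.3, limma 3.58.1 fitted 4 stage means to the 16 later arrays (12 residual and 2.75 prior degrees of freedom), two-sided, and each ± of a difference is its standard error. The number of arrays limits the precision. The code was checked on simulated data. Members, lists and tests were chosen with earlier results of these data known. Lists match gene symbols by pattern. Named genes have the widest gaps (24), lie nearest the threshold, change most among later stages (5 each way), lead their list or have opposing probe sets; others are marked. Alternatives covered scaling, probe sets, prior, weights, block, dim probe sets, the mitochondrial split and single arrays. No sequences were used here. Some values are not reported here.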

Additional observations from a re-analysis of the deposited data

Results flagged for a closer look

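Within a stage, 1 array can stand apart from the other 3. For 44 of the genes, and for the median over all of them, 225 groups of 4 arrays were tested with Dixon's criterion at 95%, and 16 exceeded it, where about 11.2 would by chance at 1 in 20. Early replicate 3 had PHGDH at 9.06, with the others at 6.70 to 6.83. Early replicate 4 had KBTBD11, a Kelch-domain protein, at 5.95 (others 4.68 to 4.86). ZWINT stood apart in early replicate 2 at 6.98 (others 6.10 to 6.16), in mid replicate 4 at 5.71 (5.42 to 5.46) and in mid-late replicate 1 at 4.88 (5.61 to 5.71). RPL22L1 was at 11.62 in early replicate 1 (11.07 to 11.14).

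Among later arrays, mid replicate 1 had RCL1 at 7.61 (7.22 to 7.25). Mid replicate 2 had RNASEH2A at 6.68 (6.24 to 6.26), KCNK1 at 3.56 (4.12 to 4.15) and CCT7 at 9.08 (9.25 to 9.26). Mid-late replicate 1, which is in the low mitochondrial group, had OSMR at 8.99 (9.59 to 9.68) and ZMYM3 at 7.30 (7.62 to 7.65). Mid-late replicate 2 had EVI5 at 8.16 (8.01 to 8.02), late replicate 1 had FKBP10 at 7.09 (7.55 to 7.64), very-late replicate 2 had CRYAB at 5.38 (6.04 to 6.10) and very-late replicate 4 had CIB2 at 5.60 (5.21 to 5.28). What sets single arrays apart was not tested.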

How the results depend on the processing

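The rule took 156 genes with cyclic loess scaling (139 shared with the 174), 193 with median centring (171 shared), 155 with all probe sets of a gene averaged (125 shared) and 152 without dim genes. Leaving out each array gave 174 to 431 genes. For the rule, leaving out an array can only keep or raise the count, and leaving out dim genes can only keep or lower it. In limma, leaving out each of 16 arrays gave 58 to 75 genes for any difference, 0 to 1 in mid-late minus mid (1 without mid-late replicate 2), 0 in every late minus mid-late fit, 21 to 34 in very-late minus late, 10 to 29 in late minus mid and 64 to 80 in very-late minus mid. Without very-late replicates 1 and 2, late minus mid had 37 (21.3%), against 7.62% of all genes. The main fit had 10.3% and 3.52%, so the count over all genes grew as well. With the mitochondrial term late minus mid had 1 (0.575%), against 0.113% of all genes. At an adjusted p under 0.01, very-late minus late had 17 and late minus mid 6. At 2-fold or more, the counts were 8 in very-late minus late, 3 in late minus mid and 21 in very-late minus mid. These thresholds call fewer by construction. Apart from them and from the rule's counts without single arrays or dim genes, the cause of the shifts was not tested. Counts in this section without a share over all genes beside them do not set the 174 apart from other genes. Late minus mid also lost LOC714349 without mid replicate 3 and PIMREG without mid replicates 2 or 3 or late replicate 4.

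With the replicate number as a block, 62 genes passed for any difference, 29 in very-late minus late, 15 in late minus mid and 71 in very-late minus mid. The numbers do not pair the glands: same-numbered arrays deviated from their stage means with r = -0.156 to 0.240, and arrays of different numbers with r = -0.249 to 0.279. With 4 arrays a stage, small differences may have been missed, and 6 of the genes have a later stage mean at or below background.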
